A study of Saccharomyces cerevisiae with 8 samples.

Results

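The change over the first 6 h of a fermentation assay was measured in JP1 and CAT-1, the industrial yeasts of the series that were sampled at both times. It was taken from 6 of the 8 arrays, chosen by their labels: 1 array of each strain at the start (T0h) and 2 of each strain after 6 h (T6h). JP1 is a homothallic and CAT-1 a heterothallic diploid Saccharomyces cerevisiae, each isolated at a Brazilian sugarcane mill. Before the assay, cells had been grown at 33 ºC in successive 24 h batches of rich medium with 20 g/l glucose. Sample RNA carried Cy5 (red) and was set on the array against Cy3-labelled (green) RNA of BY4741 at T0h, so this laboratory strain served as the common reference. Each level below is the log2 ratio of red to green signal, and each change is T6h minus T0h on that scale. The reference and the dye cancel in it by design, as far as the green signal was measured equally well on each array. The arrays of PE-2 and of BY4741 as a sample were left out. The design calls the samples biological replicates without saying what they shared, and the p-values cover only the spread among these arrays.

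Yeast that meets abundant sugar ferments it to ethanol even when oxygen is present, and represses the genes for respiration, for gluconeogenesis and for the use of acids, fats and other carbon sources. Growth on sugar draws on the synthesis of amino acids, nucleotides, sterols and cell wall, while cells that leave a long batch culture carry RNA of stationary phase and stress protection. Low oxygen switches several genes from an aerobic to an anaerobic form.

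On slide 1, which held both T0h arrays and 1 T6h array of each strain, 89.9% to 91.3% of gene probes were well above background in green. Slide 2 held the other 2 T6h arrays, JP1 replicate 4 and CAT-1 replicate 5, where the shares were 20.8% and 11.2%. Their median green background was 387 and 348, against 26 to 28 on the slide 1 arrays used. Ratios of the 2 spots of a probe correlated at 0.529 and 0.609 there (Spearman), and at 0.972 to 0.987 on those of slide 1. The green reference was thus poorly measured on slide 2, and ratios from it are less precise. Red signal was well above background for 81.9% to 98.3% of probes, and its median was lowest for CAT-1 at T6h (60 and 83, against 250 to 585 on the other 4 arrays). Across genes, the ratios correlated at 0.788 between the T0h arrays, 0.542 to 0.791 among T6h arrays and 0.0832 to 0.302 across times. Directions below follow the names of the scanner files. The deposited value table went against these names: only 3 of its 8 columns followed the array of their own name best. Its JP1 T0h column correlated at 0.944 with JP1 T6h replicate 1 and at 0.303 with its own array, its CAT-1 T0h column at 0.876 with CAT-1 T6h replicate 2, and its CAT-1 T6h replicate 2 column at 0.861 with the JP1 T0h array. The columns of the 2 slide 2 arrays followed their own array (0.896 for JP1 and 0.903 for CAT-1). These arrays correlated at 0.791 and 0.776 with the slide 1 scanner array named T6h of their strain. With the array named T0h of their strain they correlated at 0.158 and 0.11. Which of the names are wrong is not given, and the table was not used in the comparisons.

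The RNA of many genes differed between the start and 6 h in the fit over both strains. Of 5972 genes tested, 751 rose and 412 fell (limma, two-sided, Benjamini-Hochberg adjusted p under 0.05, with strain as a term; 19.5% called, 12.6% higher and 6.9% lower). At least a 2-fold change was seen for 1124 of them, and 1982 genes had an unadjusted p under 0.05. Glycolysis, respiration and the TCA cycle account for 63 of the 1163, which leaves 1100 others, 729 higher and 371 lower. Among all genes tested, 26.5% had all 4 T6h values above the T0h value of their own strain and 24.9% all 4 below. For 1162 of the 1163 called genes the 4 values lay on 1 side, which the call on these same values requires almost by itself. A change of at least 2-fold in both strains was found for 779 of the called genes, and in 1 strain for 380.

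Tests of each strain alone set 2 arrays against 1 and gave fewer calls. Both are contrasts from 1 fit of all 6 arrays and share 1 estimate of the spread, here and where a strain alone is named below. That spread comes from the T6h pairs, each of 1 slide 1 and 1 slide 2 array, and none was measured at T0h. Passing in both strains is therefore not 2 independent results. In JP1, 576 genes passed (9.65%; 345 higher or 5.78%, 231 lower or 3.87%), and in CAT-1 416 (6.97%; 326 higher or 5.46%, 90 lower or 1.51%). In both strains 249 genes passed, 179 higher and 70 lower, and none of them in opposite directions. They make up 43.2% of the JP1 calls and 59.9% of the CAT-1 calls. Of the 1163 genes called jointly, 504 passed in neither strain by itself. A gene whose strains moved in opposite directions can hardly pass the joint test, so the shared sign of the jointly called genes follows from their choice. Over all genes, with no such choice, 4378 (73.3%) had the same sign in both strains and the changes correlated at a Pearson r of 0.733 (Spearman 0.663). The strains share no array, but the same reference RNA and the same slides. Slide 1 alone gave 0.732.

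The strains were also compared with the arrays of 1 strain at a time. The 3 JP1 arrays by themselves called 163 genes, of which 162 had the same sign in CAT-1 and 148 (90.8%) a change of at least 2-fold the same way there. The 3 CAT-1 arrays by themselves called 777 genes, with 744 of the same sign and 554 (71.3%) at least 2-fold the same way in JP1. For comparison, 22.5% of all genes changed at least 2-fold in CAT-1 and 27.7% in JP1, in either direction. A strain has a single T0h array, so leaving out the JP1 one leaves the CAT-1 change (416 calls) and leaving out the CAT-1 one leaves the JP1 change (576 calls). The p of each strain given below is therefore also the p without the T0h array of the other. On slide 1 alone all 1163 genes kept their sign, and 731 passed.

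**Figure D1:**
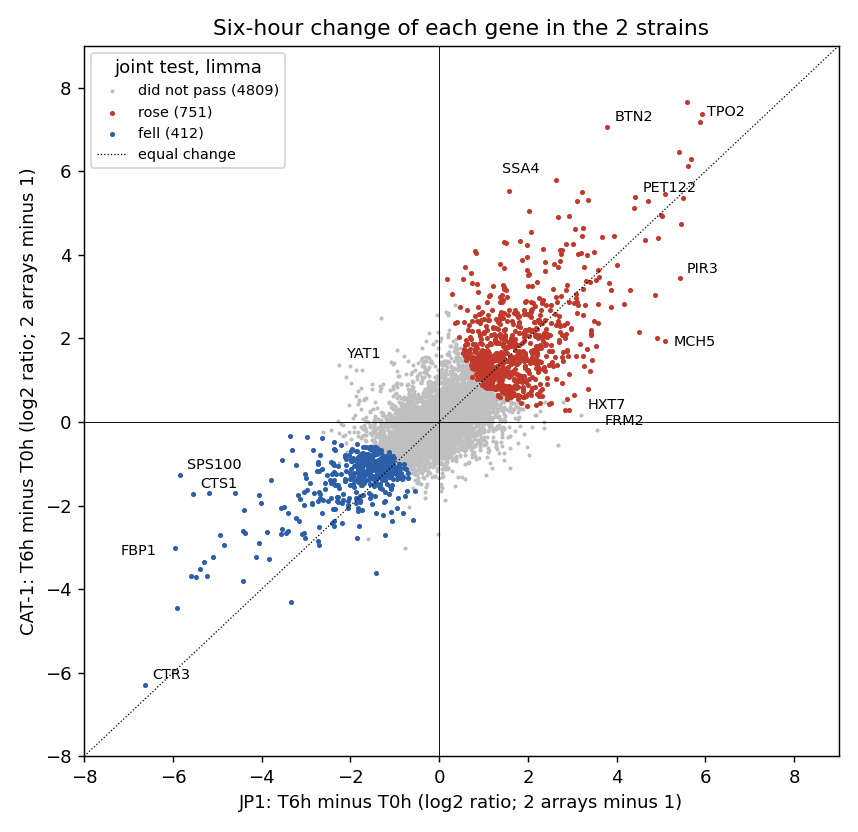
Change of each of 5972 genes from T0h to T6h in JP1 (x axis) and CAT-1 (y axis), as differences of log2 ratios. Red and blue points are the 751 genes that rose and the 412 that fell in the joint test, which by its form calls genes that moved the same way in both strains; the dotted line marks equal change.

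The largest rise beyond sugar breakdown and respiration belonged to TPO2 (YGR138C), a plasma membrane exporter of polyamines. Its ratio was -0.72 in JP1 and -0.39 in CAT-1 at T0h, and at T6h 5.62 and 4.68 in JP1 and 7.75 and 5.85 in CAT-1. All T6h arrays were far above both T0h arrays, a rise of 6.53 ± 0.53 (SE, 4 arrays against 2; limma adjusted p 4.04e-05). CYS3, which makes cysteine from cystathionine, went from -1.70 and -1.99 to 4.18, 3.22, 5.28 and 3.64 (JP1 replicates 1 and 4, then CAT-1 replicates 2 and 5, as in all lists of 4 values below). The rise was 5.93 ± 0.48 (adjusted p 4.22e-05), of similar size in JP1 (5.40) and CAT-1 (6.45). BAT1, the mitochondrial aminotransferase of branched-chain amino acids, stood at 0.22 and 0.26 and then at 5.78, 4.66, 6.16 and 4.26. It rose by 4.98 ± 0.50 (adjusted p 0.000116).

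Chaperones were also among the 15 largest rises. BTN2, which gathers misfolded proteins, had ratios of -3.66 and -3.32 at T0h, and of 0.14, 0.11, 3.22 and 4.28 at T6h, a rise of 5.43 ± 0.61 (adjusted p 0.000222). The cytosolic Hsp70 genes SSA2 and SSA4 rose by 4.34 ± 0.45 and 4.21 ± 0.56 (adjusted p 0.000136 and 0.000588). SSA4 stood at -2.93 and -2.63 and then at -0.29, -0.30, 3.07 and 3.23. For these 3 genes every CAT-1 value at T6h lay above every JP1 value, and none of their strain differences passed a test over all genes. HSP26, a small heat shock protein, went from -4.35 and -2.61 to 0.57, 0.46, 0.16 and 0.73, with no such order. Its rise was 3.96 ± 0.41 (adjusted p 0.00014).

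PET122, a mitochondrial activator of COX3 translation, stood at -0.83 and -2.26 and then at 3.68, 3.5, 3.15 and 3.1, a rise of 4.90 ± 0.32 (adjusted p 7.94e-06). PIR3, a protein bound to the glucan of the cell wall, went from -3.34 and -1.83 to 1.84, 2.33, 1.56 and 1.67 (4.43 ± 0.42, adjusted p 9.85e-05). PRY1, a secreted protein that binds sterols, went from -3.14 in both strains to 0.01, 0.21, 1.83 and 1.20 (3.95 ± 0.37, adjusted p 9.66e-05). RTS3 rose by 4.2 ± 0.47 (adjusted p 0.000222). ATG41, an autophagy gene, rose by 3.92 ± 0.62 (adjusted p 0.00149), with 2.92 in JP1 alone (adjusted p 0.0572) and 4.93 in CAT-1 alone (adjusted p 0.00887). MET17 and LEU2, also among the 15 largest rises, are described with the deletion markers of the reference strain.

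CTR3, a high-affinity copper transporter, fell most. It was at 6.92 in JP1 and 6.29 in CAT-1 at T0h, and at 1.69, -1.08, -0.06 and 0.05 at T6h, where 3 of the 4 arrays had its red signal well above background. The fall was -6.45 ± 0.59 (adjusted p 7.84e-05), and about as deep in each strain (-6.62 and -6.29). SIP18, a hydrophilin of drying cells, went from 3.37 and 3.41 to -2.52, -2.58, -0.84 and -1.26 (-5.19 ± 0.37, adjusted p 1.65e-05). HXT5, a hexose transporter of slowly growing cells, went from 1.68 and 1.80 to -3.91, -3.91, -1.88 and -1.87 (-4.63 ± 0.41, adjusted p 6.07e-05). Here the JP1 arrays ended below the CAT-1 arrays, as they did for SIP18.

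That order recurred among the deepest falls. CHA1, which breaks down serine and threonine, went from -0.59 and 0.22 to -5.95, -6.17, -3.68 and -3.29 (-4.59 ± 0.40, adjusted p 6.07e-05). FBP1, the fructose-1,6-bisphosphatase of gluconeogenesis, went from 1.1 and 0.72 to -5.06, -4.65, -2.19 and -2.38 (-4.48 ± 0.54, adjusted p 0.000333). JEN1, a lactate transporter, reached a change of -4.32 and ADY2, an acetate transporter, -4.11 (adjusted p 9.85e-05 and 2.55e-05). The stationary-phase gene SPG4 and RGI2, a gene of respiratory growth, both reached -4.46 (adjusted p 7.37e-05 and 4.41e-05), and GRE1, another hydrophilin, reached -4.16 (adjusted p 0.000106). SPG1, a second stationary-phase gene, ran the other way: it ended at -0.34 and -0.66 in JP1 and lower, at -0.93 and -1.37, in CAT-1 (change -3.82 ± 0.34, adjusted p 6.07e-05). Red signal at T6h was dimmer for CAT-1 than for JP1, as given above, and its part in these end levels was not tested.

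**Figure D2:**
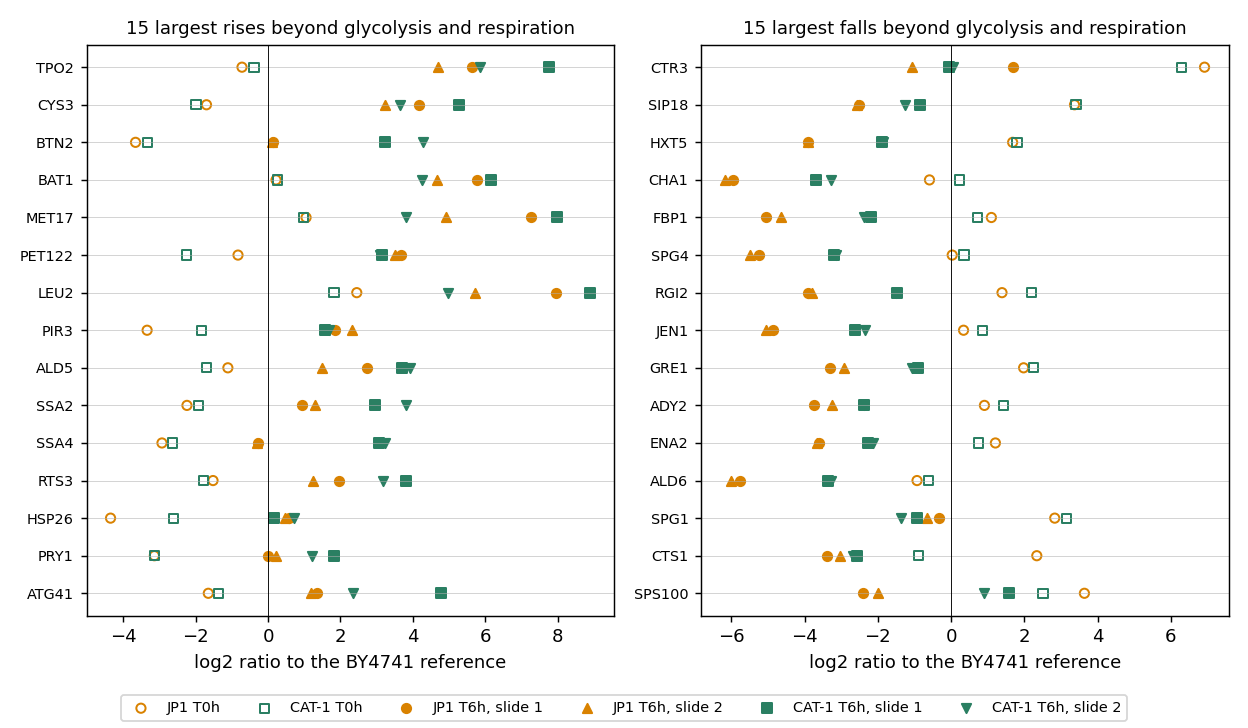
Log2 ratio to the BY4741 reference (x axis) on each of the 6 arrays for the 15 genes with the largest rise (left) and the 15 with the largest fall (right) beyond glycolysis, respiration and the TCA cycle. Open symbols are T0h and filled symbols T6h. The genes were chosen so that in each strain both filled symbols lie on the same side of the open one.

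Among 71 gene lists, 15 had a median change of at least 1 in either direction, and in all 15 the medians of JP1 and CAT-1 had the same sign, as did the median on slide 1 alone. Signs differed between the strains for 14 lists, where at least 1 strain had a median within 0.26 of 0. The median of all genes was -0.00815.

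**Figure D3:**
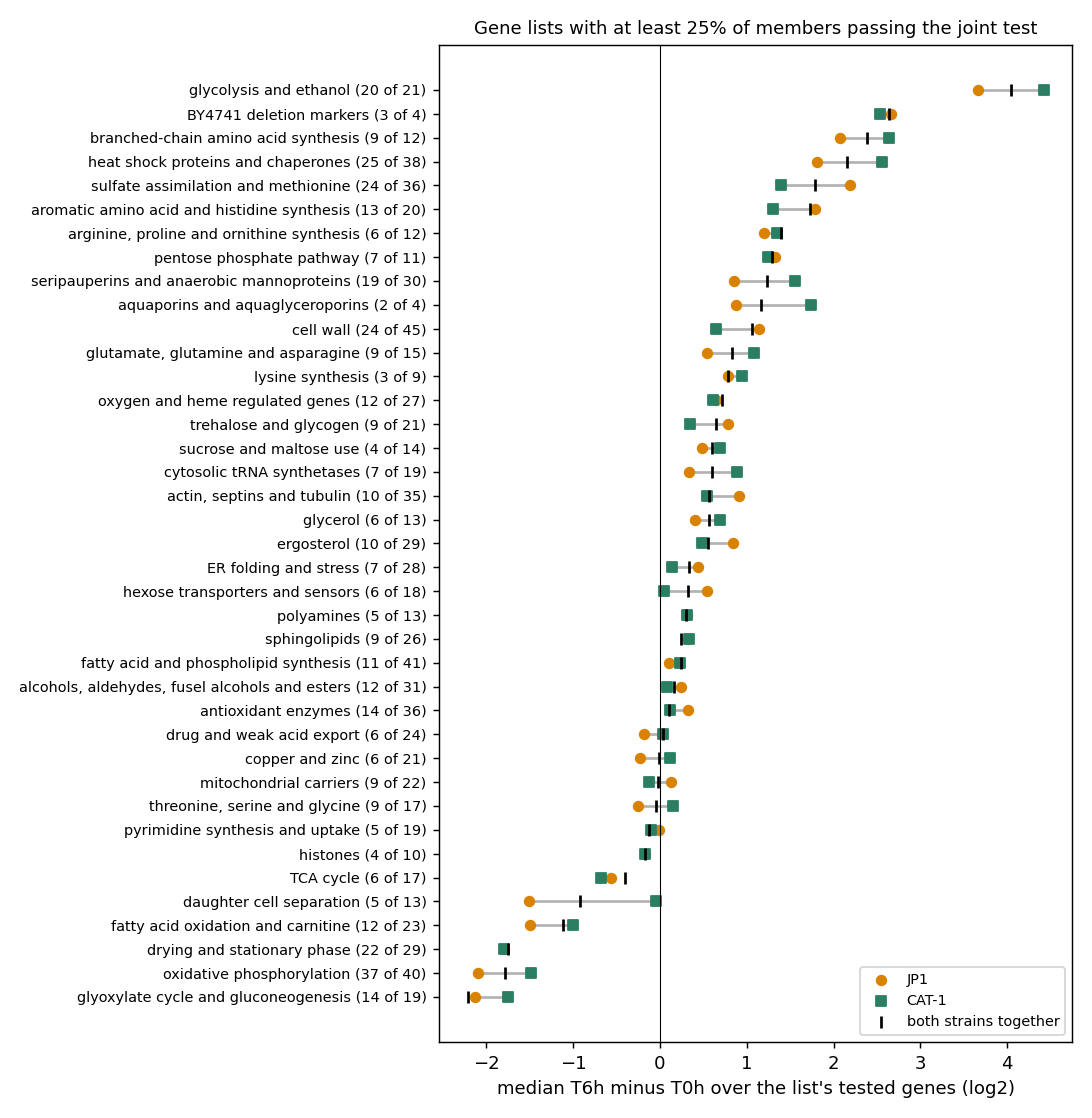
Median change (x axis, log2) of the 39 gene lists in which at least 25% of tested members passed the joint test, with the number passed of the number tested in brackets. Circles are JP1, squares CAT-1 and bars the joint change; both strain medians lie above 0 for 27 of the lists, and daughter cell separation shows a wide gap between strains.

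Genes for carbon sources other than sugar were lower at 6 h. Gluconeogenesis and the glyoxylate cycle had 11 of 19 genes lower and 3 higher (73.7% passed; median -2.21, with -2.13 in JP1 and -1.75 in CAT-1), and 8 falls passed in both strains separately. CIT2, the peroxisomal citrate synthase, went from -0.60 and 0.69 to -4.32, -4.53, -2.63 and -2.55 (-3.55 ± 0.30, adjusted p 4.72e-05). SFC1, which carries succinate into mitochondria in exchange for fumarate, reached -2.47 (adjusted p 0.00108). Of 23 genes of fatty acid oxidation and the carnitine shuttle, 11 fell and 1 rose (median -1.12). YAT2, a carnitine acetyltransferase, was at -3.51 ± 0.42, the peroxisomal catalase CTA1 at -2.77 ± 0.32 and the thiolase POT1 at -2.61 ± 0.33, each called in both strains alone. ARO10, a decarboxylase of fusel alcohol formation, was at -2.41 ± 0.29 (adjusted p 0.000369), with nearly equal changes in JP1 (-2.42) and CAT-1 (-2.41).

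The isoforms of aldehyde dehydrogenase parted. ALD6, the cytosolic form that turns acetaldehyde into acetate, went from -0.93 and -0.61 to -5.76, -6.00, -3.36 and -3.27 (-3.83 ± 0.45, adjusted p 0.000279). ALD5, a mitochondrial form, went from -1.11 and -1.70 to 2.73, 1.5, 3.7 and 3.91 (4.36 ± 0.50, adjusted p 0.000262). Both calls held in each strain alone. In their list of alcohols, aldehydes and esters, 6 of 31 rose and 6 fell (median 0.16). GRE3, an aldose reductase, rose by 2.29 ± 0.35 (adjusted p 0.0012).

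The pentose phosphate pathway, which supplies NADPH and ribose, had 6 of 11 genes higher and 1 lower (median 1.29; 1.33 in JP1 and 1.24 in CAT-1). GND1, its 6-phosphogluconate dehydrogenase, went from -1.12 and -1.67 to 2.90, 2.86, 1.95 and 2.23 (3.88 ± 0.29, adjusted p 2.55e-05). The transketolase gene TKL1 rose by 3.61 ± 0.33, the lactonase gene SOL4 by 2.68 ± 0.39 and the transaldolase gene TAL1 by 2.11 ± 0.33, in both strains alone. Among 21 trehalose and glycogen genes, 8 rose and 1 fell (median 0.65). Those that rose act in both directions of glycogen turnover: glycogen phosphorylase GPH1 (2.97 ± 0.32), the phosphoglucomutase PGM2 (2.77 ± 0.36), UGP1, which makes UDP-glucose (2.32 ± 0.30), and GAC1, a phosphatase subunit that promotes glycogen storage (2.29 ± 0.34). All 4 passed in each strain by itself.

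Of 18 hexose transporters and sensors, 4 rose and 2 fell (33.3%, against 19.5% of all genes). HXT4, of high affinity, went from -0.50 and -0.95 to 4.61, 3.39, 1.23 and 1.18 (3.33 ± 0.51, adjusted p 0.00129), higher in both JP1 arrays. HXT3, of low affinity, went from 0.68 and -0.15 to 2.28, 2.25, 6.03 and 4.73 (3.56 ± 0.71, adjusted p 0.0056), higher in both CAT-1 arrays. HXT3 did not pass in JP1 alone (1.58, adjusted p 0.113) or on slide 1 alone (adjusted p 0.0561). HXT1, also of low affinity, rose by 3.21 ± 0.65 (adjusted p 0.00601) with 3.25 and 3.18 in the strains, neither of which passed alone (adjusted p 0.0745 and 0.101). Of 25 genes of glucose signalling, 3 rose and 1 fell (16%, under the 19.5% of all genes). CAT8, an activator of gluconeogenic genes, was at -1.52 ± 0.31 (adjusted p 0.00601; 0.118 in CAT-1 alone).

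Glycerol genes differed in how evenly they moved. In that list, 5 of 13 rose and 1 fell (median 0.56). GPP2 and GPP1, the phosphatases that release glycerol, rose by 2.14 ± 0.63 and 1.66 ± 0.45 (adjusted p 0.0372 and 0.0251), by 3.71 and 2.53 in CAT-1 against 0.58 and 0.80 in JP1, where neither passed (adjusted p 0.629 and 0.403). Neither call held without CAT-1 replicate 5 (adjusted p 0.0932 and 0.0512), and GPP2 also lost it without CAT-1 replicate 2 (adjusted p 0.0691). Among 32 regulators of stress and nutrient signalling, 6 rose and 1 fell (21.9%, near the 19.5% of all genes). HOG1, the kinase of the osmotic stress pathway, went from -0.55 and -0.42 to 1.08, 1.61, 1.58 and 1.86 (2.02 ± 0.31, adjusted p 0.00123), with little spread between strains.

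Many genes of amino acid synthesis rose. Branched-chain synthesis had 9 of 12 genes higher and 0 lower (75%; median 2.39, with 2.07 in JP1 and 2.64 in CAT-1). ILV3, a dehydratase, went from -0.89 and -0.88 to 2.13, 2.64, 2.79 and 2.88 (3.49 ± 0.31, adjusted p 6.07e-05), and ILV2, the acetolactate synthase, rose by 3.09 ± 0.35 (adjusted p 0.000222). Aromatic and histidine synthesis had 12 of 20 higher and 1 lower (median 1.73). Its members ARO8, a transaminase (2.66 ± 0.29), HIS5 (2.43 ± 0.34), the multi-step enzyme ARO1 (2.41 ± 0.29) and ARO3 (2.27 ± 0.31) rose in each strain alone. Of 12 arginine and proline genes, 6 rose, among them ARG1 (2.52 ± 0.38) and ARG4 (2.12 ± 0.31), which form and split argininosuccinate. Of 9 lysine genes 3 rose, led by LYS1 (2.63 ± 0.38, adjusted p 0.000964).

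Some genes of amino acid use opposed those of synthesis, and others rose. In the list of threonine, serine and glycine, 5 of 17 genes rose and 4 fell (median -0.05). HOM2, on the way to threonine and methionine, went from -0.72 and -1.23 to 2.50, 2.46, 3.25 and 2.40 (3.63 ± 0.35, adjusted p 9.85e-05). In the same list, GCV3 of the glycine cleavage system went from 0.33 and -0.16 to -1.73, -2.34, -2.33 and -2.77 (-2.37 ± 0.32, adjusted p 0.000588), and CHA1 fell as described. GDH1, which builds glutamate from ammonium, went from -3.70 and -3.54 to -0.90, -0.66, -0.77 and -0.54 (2.91 ± 0.29, adjusted p 0.000113). GDH2, which degrades glutamate, went from 0.23 and 0.66 to -1.84, -1.76, -1.34 and -0.96 (-1.92 ± 0.29, adjusted p 0.00129). Their list of glutamate, glutamine and asparagine had 6 of 15 genes higher and 3 lower (median 0.83). GAT1, an activator of genes for poor nitrogen sources, rose by 3.42 ± 0.47 (adjusted p 0.000679). Of 22 genes under nitrogen catabolite repression 5 rose and 0 fell (22.7%, near the 19.5% of all genes, median 0.24). Among them CAR2 and CAR1, of arginine breakdown, rose by 1.62 ± 0.37 and 1.16 ± 0.31 (limma adjusted p 0.012 and 0.0246). Neither call held on slide 1 alone (adjusted p 0.0506 and 0.0923).

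Sulfate assimilation and methionine synthesis, which provide cysteine and S-adenosylmethionine, had 24 of 36 genes higher and 0 lower (66.7%; median 1.79, with 2.19 in JP1 and 1.40 in CAT-1). JP1 alone called 16 of them and CAT-1 alone 9. After CYS3, MET2, which starts homoserine on its way to methionine, went from -0.48 and -0.99 to 3.27, 2.92, 1.80 and 1.84 (3.20 ± 0.31, adjusted p 0.000106). MET13 rose by 3.00 ± 0.58 (adjusted p 0.00496; 0.116 in JP1 alone). Of 23 amino acid permeases, 2 rose and 3 fell (21.7%, near the 19.5% of all genes). DIP5, which takes up glutamate and aspartate, went from 0.76 and 1.53 to -4.07, -2.53, -1.59 and -1.12 (-3.47 ± 0.45, adjusted p 0.000516). VBA3, a vacuolar transporter, was not well above background in red on any T6h array and was at least 3.53-fold lower (adjusted p 0.00129).

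Of 24 purine genes 4 rose and 1 fell (20.8%, median -0.12), and of 19 pyrimidine genes 4 rose and 1 fell (26.3%, median -0.12), shares not far from the 19.5% of all genes. The pyrimidine gene that fell was URA3, described below with the deletion markers of the reference strain. URA8, a CTP synthase, went from -3.31 and -2.39 to -0.30, -0.14, 0.33 and 0.81 (3.03 ± 0.30, adjusted p 0.00011). ADE3, which supplies one-carbon units, rose by 2.86 ± 0.31 (adjusted p 0.000187) and CDD1, a cytidine deaminase, by 1.97 ± 0.31 (adjusted p 0.00141). Among 13 polyamine genes 5 rose, and TPO3, a second exporter, went from -0.13 and -0.03 to 1.96, 1.81, 2.04 and 2.33 (2.12 ± 0.29, adjusted p 0.000695). THI4, for the thiazole part of thiamine, was the sole call among 19 thiamine genes (2.52 ± 0.34, adjusted p 0.000612).

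More than 1 gene of copper uptake fell. After CTR3, CTR1, the other high-affinity transporter, went from 0.81 and 0.48 to -2.69, -2.75, -2.04 and -2.16 (-3.05 ± 0.32, adjusted p 0.000146), and FRE1, a reductase of copper and iron, fell by 1.83 on the log2 scale in either strain (adjusted p 0.00252). Metallothionein CUP1-1, whose probe cannot be told from that of its near-identical copy CUP1-2, differed at T0h (-0.69 in JP1 and -4.58 in CAT-1). At T6h it stood at 0.59, -0.37, 0.07 and -1.02, a change of 2.45 ± 0.64 (adjusted p 0.0214) that was 0.80 in JP1 alone (adjusted p 0.444) and lost its call without CAT-1 replicate 5 (adjusted p 0.0747). FET4, a low-affinity iron transporter repressed by oxygen, rose by 2.34 ± 0.31 (adjusted p 0.00057). In the lists, 4 of 21 copper and zinc genes rose and 2 fell (28.6%), and 3 of 30 iron genes rose and 3 fell (20%, near the 19.5% of all genes).

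Of 26 phosphate genes 3 rose: the transporters PHO84 (2.28 ± 0.31) and PHO91 (1.93 ± 0.30) and the phosphatase PHM8 (2.07 ± 0.31), each in both strains alone (joint adjusted p 0.000602, 0.00143 and 0.00126). That share, 11.5%, is below the 19.5% of all genes. The sodium pumps ENA2 and ENA1 fell. ENA2 went from 1.21 and 0.74 to -3.60, -3.65, -2.27 and -2.13 (-3.89 ± 0.41, adjusted p 0.000143), and ENA1 was at -2.98 ± 0.43 (adjusted p 0.001). The probes of these near-identical neighbours may read each other's RNA. Among 22 mitochondrial carriers 5 rose and 4 fell. PIC2, a carrier of copper and phosphate, went from 0.14 and -0.57 to 3.72, 3.75, 2.88 and 2.91 (3.53 ± 0.28, adjusted p 4.04e-05), and DIC1, for dicarboxylates, rose by 2.88 ± 0.35 (adjusted p 0.000369).

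Of 38 heat shock proteins and chaperones, 23 rose and 2 fell (65.8%; median 2.15, with 1.81 in JP1 and 2.56 in CAT-1), and 18 of the rises passed in both strains alone. The cytosolic chaperonin CCT and prefoldin, which fold actin and tubulin, had 0 of 15 members past limma's threshold, and 2 with an unadjusted p under 0.05 (median -0.07). In the endoplasmic reticulum 7 of 28 folding and stress genes rose (25%). KAR2, its Hsp70, went from -2.04 and -0.75 to 0.64, 0.70, 0.69 and 1.62 (2.31 ± 0.35, adjusted p 0.00129; 0.0517 in CAT-1 alone). DPM1 and PMT2, of the transfer of mannose to proteins, rose by 2.77 ± 0.36 and 1.94 ± 0.30 (adjusted p 0.000516 and 0.00129). In their list of glycosylation 4 of 40 genes rose and 1 fell (12.5%, under the 19.5% of all genes).

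Of 37 proteasome genes 0 rose and 4 fell (10.8%, under the 19.5% of all genes, median -0.53). Among 27 genes of ubiquitin and Cdc48, 4 rose and 1 fell (18.5%), and among 13 vacuolar proteases 3 rose and 0 fell (23.1%), both near the share of all genes. UBC4, a conjugating enzyme for damaged proteins, rose by 2.82 ± 0.42 and DSK2, a shuttle to the proteasome, by 2.34 ± 0.30 (adjusted p 0.00114 and 0.000451). UBC8, which marks fructose-1,6-bisphosphatase for degradation, went from 2.23 and 2.07 to 0.04, 0.07, 0.11 and 0.29 (-2.02 ± 0.29, adjusted p 0.000903), with almost no spread between the 4 arrays.

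Of 45 cell wall genes 23 rose and 1 fell (53.3%, median 1.06). The share of flocculin genes that passed was 12.5%, against 19.5% of all genes. Of 8 flocculin genes, for adhesion between cells, 0 rose and 1 fell: FLO11, at -1.55 ± 0.42 (adjusted p 0.0254; 0.0696 in JP1 alone and 0.345 in CAT-1 alone), a call lost without CAT-1 T6h replicate 2 (0.0568) or 5 (0.0523). CIS3 and HSP150, relatives of PIR3, rose by 3.73 ± 0.41 and 3.49 ± 0.36 (adjusted p 0.000198 and 0.000142), and YPS1, a protease anchored at the surface, went from -1.5 and -1.84 to 1.18, 2.41, 1.61 and 1.46 (3.34 ± 0.37, adjusted p 0.000198). All 3 passed in each strain alone. Seripauperins and anaerobic mannoproteins, made when oxygen is scarce, had 19 of 30 members higher and 0 lower (63.3%; median 1.23, lowest member 0.57), with medians of 0.85 in JP1 and 1.56 in CAT-1. TIR3 went from -1.29 and -1.5 to 2.53, 2.65, 1.21 and 1.31 (3.32 ± 0.33, adjusted p 0.000114), TIR1 rose by 2.47 ± 0.30 and PAU4 by 2.18 ± 0.33. Members of this family are near-identical, so their counts are not independent.

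Other oxygen-regulated genes included the isoforms of eIF5A, a translation factor. ANB1, the anaerobic form, went from 0.57 and -0.01 to 3.85, 3.48, 1.79 and 1.36 (2.34 ± 0.38, adjusted p 0.00184), and HYP2, the aerobic form, from 1.59 and 0.68 to 0.05, -0.95, -0.87 and -1.92 (-2.06 ± 0.39, adjusted p 0.00443). ANB1 passed in JP1 alone but not in CAT-1 alone (adjusted p 0.0702), and HYP2 in neither (adjusted p 0.0603 and 0.074). Of 27 genes regulated by oxygen and heme, 10 rose and 2 fell (median 0.72).

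In lipid metabolism, 9 of 29 ergosterol genes rose and 1 fell (34.5%, median 0.55). ERG3 went from -1.77 and -2.10 to 1.58, 1.1, 1.27 and 0.28 (2.99 ± 0.35, adjusted p 0.000289). ERG25 (2.60 ± 0.39), ERG6 (2.44 ± 0.35) and ERG4 (2.29 ± 0.33), which act in the late steps like ERG3, also rose in each strain alone. OLE1, the desaturase that makes unsaturated fatty acids, went the other way, from 0.85 and 1.08 to -1.39, -2.33, -1.74 and -1.97 (-2.83 ± 0.34, adjusted p 0.000319). INM1, an inositol monophosphatase, rose by 2.42 ± 0.30, PCT1, of phosphatidylcholine synthesis, by 1.81 ± 0.30, LCB1, of the first step of sphingolipid synthesis, by 2.27 ± 0.29, and YPC1, a ceramidase, by 1.87 ± 0.31. These 4 passed in both strains alone.

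Classes of translation genes differed in their counts. Of 19 cytosolic tRNA synthetases 7 rose and 0 fell (median 0.60), with DED81, for asparagine, at 2.32 ± 0.30 and FRS2, for phenylalanine, at 1.81 ± 0.29 (adjusted p 0.000516 and 0.00154). Among 137 cytosolic ribosomal proteins 19 rose and 2 fell (15.3%, under the background of 19.5%). JP1 alone called 19 higher and 1 lower, and CAT-1 alone 0 higher (3 at an unadjusted p under 0.05 in limma) and 1 lower, with medians of 0.70 and 0.05. RPS12, the gene that fell in both, went from 0.48 and 0.19 to -1.19, -1.30, -1.88 and -1.97 (-1.92 ± 0.29, adjusted p 0.0012). Of 133 ribosome biogenesis genes 24 were lower and 1 higher, while all genes had more calls higher (12.6%) than lower (6.9%). The list's share of 18.8% is near the 19.5% of all genes, and its joint median was -0.71. Its median was -1.04 in JP1, where 17 fell, and -0.32 in CAT-1, where none passed in limma (9 lower and 4 higher at an unadjusted p under 0.05). No gene of the cytosolic ribosomal protein or ribosome biogenesis lists passed for a difference between the strains. Mitochondrial ribosomal proteins had 12 of 70 lower and 2 higher (20%, also near the share of all genes, median -0.53). Of 35 genes of mitochondrial import 1 fell (2.86%).

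Of 13 genes for the separation of daughter cells from their mothers, 5 fell and 0 rose; JP1 alone called 5 and CAT-1 alone 1, with medians of -1.51 and -0.05. CTS1, the chitinase that frees daughter cells, was at 2.34 in JP1 and -0.89 in CAT-1 at T0h and at -3.39, -3.02, -2.56 and -2.67 at T6h. The strains thus differed at T0h, where each has 1 array, and ended close together (change -5.54 in JP1 and -1.72 in CAT-1, joint -3.63 ± 0.65, adjusted p 0.00335). DSE1, of the same daughter-specific set, was at 2.87 and 0.42 and then at -3.02, -1.60, -1.57 and -0.98 (joint -3.44 ± 0.67, adjusted p 0.00486; 0.144 in CAT-1 alone). Its red signal was well above background on 2 of the 4 T6h arrays, so the low end of these values is uncertain. The strain difference passed for neither CTS1 (adjusted p 0.339) nor DSE1 (0.52). DSE4, a glucanase of the same set, changed by -2.51 in JP1 and -1.89 in CAT-1 (joint -2.20 ± 0.35, adjusted p 0.00151; 0.0551 in CAT-1 alone), and ASH1, a repressor in daughter cells, by -1.42 and -1.38 (joint -1.40 ± 0.29, adjusted p 0.00663; 0.0636 and 0.0887 in the strains alone). Of 32 cyclins and cell cycle genes 3 rose (9.38%), and of 47 DNA replication genes 2 rose (4.26%). Both shares are under the 19.5% of all genes.

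Actin, septin and tubulin genes rose in 10 of 35 cases and fell in 0 (28.6%, median 0.57). ACT1, actin itself, went from -1.11 and -1 to 1.91, 1.65, 1.51 and 1.22 (2.62 ± 0.30, adjusted p 0.00026), and ABP1, which binds actin filaments, rose by 2.24 ± 0.30 (adjusted p 0.000583). Of 10 histone genes 1 rose and 3 fell (40%, median -0.17). The falls of HTA1 and HTB1 lost their call on slide 1 alone (limma adjusted p 0.0831 and 0.163). HTB2, for H2B, went from -1.25 and -1.42 to 0.56, -0.14, 2.75 and 1.79 (2.58 ± 0.50, adjusted p 0.00471; 0.128 in JP1 alone), while HTZ1, the H2A variant, went from 1.22 and 0.97 to -1.17, -1.13, -0.23 and -0.63 (-1.88 ± 0.33, adjusted p 0.0029; 0.092 in CAT-1 alone). RDH54, an ATPase of DNA recombination, rose by 3.10 ± 0.49 (adjusted p 0.00146).

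Of 29 genes of drying and stationary phase, 19 fell and 3 rose (75.9%), and the medians of the strains were equal at -1.79; 11 of the falls passed in both strains alone. Of 36 antioxidant enzymes 9 rose and 5 fell (median 0.11). AHP1, a peroxiredoxin, went from -1.04 and -0.28 to 3.93, 3.79, 1.97 and 1.49 (3.45 ± 0.53, adjusted p 0.00134). TRR1, the thioredoxin reductase that serves it, rose by 2.22 ± 0.29 and SRX1, which repairs peroxiredoxins, by 2.12 ± 0.31 (adjusted p 0.000566 and 0.00103). SRX1 was well above background in red on 1 of the 2 T0h arrays. QDR2, a multidrug exporter, rose by 2.42 ± 0.34 (adjusted p 0.000735), in a list where 4 of 24 rose and 2 fell (25%, against 19.5% of all genes).

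Whether the strains differed in their change was tested as the change of CAT-1 minus that of JP1. No gene passed in limma's test over 5972 genes (smallest adjusted p 0.339), and 338 (5.66%) had an unadjusted p under 0.05. The median SE of this difference was 0.638, against 0.327 for the joint change, so the arrays resolve only wide gaps. Without JP1 T6h replicate 1, 29 genes passed, and without JP1 T6h replicate 4, 51. Red signal alone, after quantile normalization, called 405. The values that follow are therefore descriptions of the genes with the smallest p.

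SPS100, a spore wall gene, had a change of -5.85 in JP1 and -1.26 in CAT-1. It was at 3.64 and 2.51 at T0h and at -2.4, -2, 1.58 and 0.91 at T6h. In the joint test it fell (-3.55 ± 0.77, adjusted p 0.00871), but not on slide 1 alone (adjusted p 0.0938) or in CAT-1 alone (adjusted p 0.156). PRP46, a splicing factor, was at -0.65 and -0.82 at T0h, stayed at -0.46 and -0.49 in JP1 and reached 2.47 and 2.72 in CAT-1. MCH5, a riboflavin transporter, was at 0.02 and -0.43 at T0h, and reached 5.29 and 4.91 in JP1 but 1.67 and 1.38 in CAT-1. MCH5 passed in either strain (adjusted p 0.000277 in JP1 and 0.0277 in CAT-1). FRM2, of the nitroreductase family, had 3.56 in JP1 and -0.20 in CAT-1, SPR2, well above background in red on 2 of the 4 T6h arrays, had 2.68 and -0.56, and HXT7, a high-affinity hexose transporter with the near-identical copy HXT6, 3.19 and 0.17.

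Opposite changes of at least 2-fold, with both T6h arrays on opposite sides of T0h, were found for 10 genes. YAT1, a carnitine acetyltransferase of the mitochondrion, was at -1.77 in JP1 and 0.33 in CAT-1 at T0h, and at -4.04, -3.98, 1.91 and 1.46 at T6h. Its change was -2.25 in JP1 (adjusted p 0.0143) and 1.36 in CAT-1 (adjusted p 0.103). ADH2, the alcohol dehydrogenase that consumes ethanol, was picked out after its values were seen. It was at 0.30 and 0.73 at T0h and at -1.89, -1.73, 1.85 and 1.77 at T6h, a change of -2.10 in JP1 (adjusted p 0.0154) and 1.07 in CAT-1 (adjusted p 0.17). The difference between strains did not pass for either gene.

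**Figure D4:**
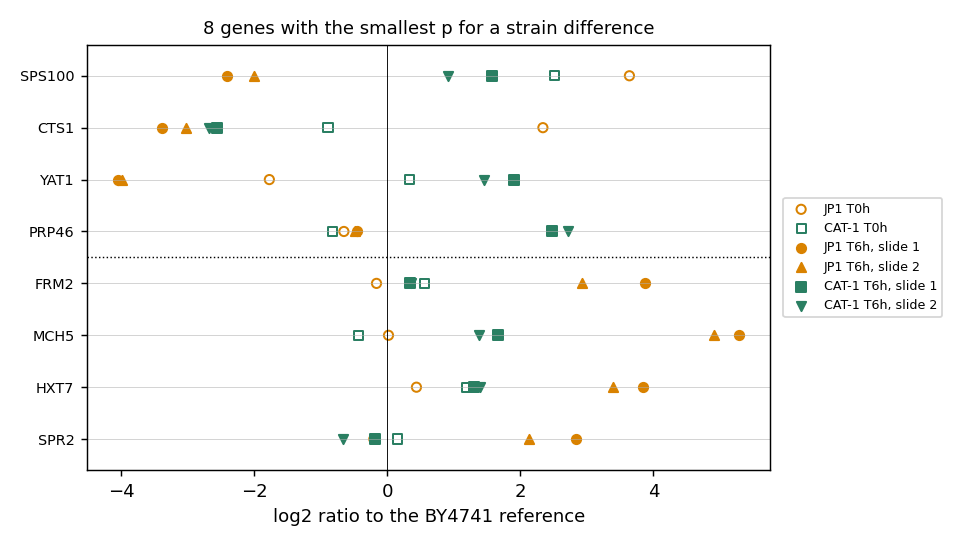
Log2 ratio to the BY4741 reference (x axis) on each of the 6 arrays for the 8 genes with the smallest p for a difference between the strains, 4 with the higher change in CAT-1 (above the dotted line) and 4 with the higher change in JP1. Open symbols are T0h and filled symbols T6h; none of the differences passed after adjustment over all genes.

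BY4741 is a haploid of mating type a that lacks working HIS3, LEU2, MET17 and URA3, so the ratios of these genes are taken against a reference without them. LEU2, of leucine synthesis, went from 2.45 and 1.82 to 7.95, 5.71, 8.89 and 4.97, and MET17, of sulfide uptake into homocysteine, from 1.05 and 0.97 to 7.25, 4.91, 7.98 and 3.80. In both strains the slide 2 array lay 2 or more units below the slide 1 array, and the part of the green background in this gap was not tested. LEU2 rose by 4.74 ± 0.90 (6.28 on slide 1) and MET17 by 4.97 ± 0.94 (6.6 on slide 1), with adjusted p of 0.00436 and 0.00435, and neither passed in a strain alone (adjusted p 0.0621 to 0.084). URA3 was at 4.51 and 3.48 and then at 3.75, 2.77, 1.58 and 1.55 (-1.58 ± 0.35, adjusted p 0.00987), and lost its call on slide 1 alone (adjusted p 0.0689). Green signal was well above background on 0 of the 6 arrays for URA3 and on 1 each for LEU2 and MET17, so these ratios have a weak denominator. In red signal alone the URA3 change was -0.52 (limma adjusted p 0.0788). HIS3 was at 0.54 ± 0.45 (adjusted p 0.441). The diploid label was set against mating-type markers: a diploid should hold less RNA of haploid-specific and a-specific genes than the reference, a haploid of mating type a. Over the 6 arrays the median ratios of 10 haploid-specific genes ran from -2.89 (RME1) and -2.29 (STE18) to -0.39 (FAR1), with 4 of 10 below -1 and a median of -0.79. The 6 a-specific genes ran from -0.76 (MFA2) to 0.26 (STE6), with STE2 at -0.24 and MFA1 at -0.27, and 3 of the 6 were well above background in red on all 6 arrays. The 4 alpha-specific genes ran from -0.39 to -0.01. The a-specific genes thus did not set these strains clearly apart from the haploid reference. In the joint test 9.09% of haploid-specific and mating-type genes passed, against 19.5% of all genes. Of 22 haploid-specific and mating-type genes tested, 2 rose, RDH54 and STE18 (1.64 ± 0.46, adjusted p 0.031; 0.42 in JP1 alone), the latter well above background in red on 3 of the 4 T6h arrays and not called without JP1 replicate 4 (0.0832), CAT-1 replicate 2 (0.0811) or CAT-1 replicate 5 (0.0759).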

How the data were processed

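The 6 arrays are Agilent 2-colour arrays. Per the file headers, Agilent Feature Extraction 10.10.1.1 read the images. The deposited spot and background signals are intensity values, the deposited log ratio is a log10 value of red against green, taken after the software's own correction, and the marks for background, evenness and saturation are in no unit (other). The submitters' processing notes name limma. The authors deposited a value table whose unit is not stated (other); its column medians lay between -0.0542 and 0.00331, and its scale, centring and direction remain unknown.

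Marked spots were left out, signals corrected by normexp (offset 50), normalised by loess within arrays, and both spots of a probe averaged (limma 3.58.1, R 4.3.3). Of 6256 probes, those marked well above background on 2 or more of the 6 arrays, in red or green, were kept. No gene spot was marked saturated in red, and saturation in green was not counted. RefSeq symbols matched 5756 probes and not 500. Models had strain and time (3 residual degrees of freedom), or a mean for each strain and time (2). The number of arrays limits the precision. Scripts were tested on simulated data.

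The genes named are the 15 largest rises and 15 largest falls with all T6h values on one side, up to 4 passing members of each of 71 lists, the smallest p of the strain difference and the deletion markers: 256 genes, not all printed. Members, lists and rule were chosen with earlier results of these data known. Alternatives covered background, normalization, filters, marked spots, array weights, slide, samples in the fit and single arrays.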

Additional observations from a re-analysis of the deposited data

How the results depend on the processing

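The joint count of 1163 was 328 with median centring in place of loess, 544 with the scanner software's own log ratio, 507 without background correction, 2501 with red signal alone, and 370 of 679 genes tested with both channels above background on all 6 arrays. The share of higher calls was 64.6%, but 46.2% with red signal alone and 42.7% with both channels above background. Red signal alone shifted the median of all genes by -0.093, and the scanner's ratio by 0.104. Leaving out 1 array gave 416 to 1183. Other settings, with slide as a term (965) and slide 1 alone (791), stayed within 1.5 times. JP1 alone (576) gave 83 with median centring, 0 with the scanner's ratio and 0 without background correction (831 and 922 in limma at an unadjusted p under 0.05), 150 with an offset of 10, 2392 with red signal alone, 335 with both channels above background, 894 with slide as a term, 163 with its own arrays and 163 to 909 without 1 array. CAT-1 alone (416) gave 27, 0 (710 unadjusted), 1, 130 and 2684 under the first 5 of these, 777 with its own arrays and 48 to 777 without 1 array. The strain difference (0) gave 405 with red signal alone, 35 with both channels above background, and 0 to 51 without 1 array; slide 1 alone leaves no residual for it and gave no value. The causes were not tested. Of the 256 named genes, 123 lost the joint call with median centring, 87 with the scanner's ratio, 102 without background correction, 62 on slide 1 alone and 43 with slide as a term. Of 251 that had the call, 115 kept it whichever array was left out. Without JP1 T0h replicate 2 the signs of the joint change turned for YAT1 (1.36), FRM2 (-0.2) and SPR2 (-0.56), and without CAT-1 T0h replicate 3 these stood at -2.25, 3.56 and 2.68. With both channels above background the medians of the pentose phosphate list (-1.64) and of aromatic and histidine synthesis (-1.63) turned, each resting on 1 gene. No paired analysis was possible because each strain has a single T0h array and the labels name no shared cultures. The replicate numbers run over the arrays of a time point across strains and do not mark pairs.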

Other observations

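Some lists not described above held few calls in the joint test, against 19.5% of all genes. The shares were 3.03% for the spliceosome and mRNA decay, 13.9% for autophagy and 5.56% for the vacuolar ATPase. They were 9.09% for chromatin remodelling and 8.57% for RNA polymerase II and Mediator. Of 33 genes of the spliceosome and mRNA decay, 1 fell (PRP3, a splicing factor, at -1 ± 0.29, adjusted p 0.0332), and of 36 autophagy genes 2 rose and 3 fell. The vacuolar ATPase had 1 of 18 genes higher (VMA5, 1.74 ± 0.31, adjusted p 0.00301). Of 44 chromatin remodelling genes 4 rose, and of 35 genes of RNA polymerase II and Mediator 3 rose, led by SRB2 of Mediator (2.59 ± 0.44, adjusted p 0.00248; 0.0778 in CAT-1 alone). PRP3 lost its call without JP1 T6h replicate 1 (adjusted p 0.0713), CAT-1 T6h replicate 2 (0.081) or CAT-1 T6h replicate 5 (0.0608). Of the 1163 genes called jointly, 596 belong to none of the 71 lists.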
